A study of Mus musculus with 36 samples.

Results

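Renal gene expression after 3 days of a carbohydrate-free (CHO-free) diet was compared with that after the Control diet. The groups compared hold 10 of the 36 arrays of the series, namely 5 labelled with the CHO-free diet and 5 with the Control diet. All 45141 probe sets of the array were used. All 10 mice were male C57BL/6 mice of 10 to 12 weeks and 20 to 25 g that had eaten standard chow for 7 days before their diet, carried no genetic change and had free access to food. Their kidneys were frozen directly after the diet, without ischemia, and the RNA of each mouse was hybridized to an array of its own. The protein of the Control diet was casein. In the CHO-free diet protein took the place of all carbohydrates, so that the absence of carbohydrates and the higher protein content cannot be told apart. The paper reports that mice given this diet freely for a longer period ate less and lost weight. The intake of the mice used here is not given in the labels, so lower intake cannot be told apart from the diet's composition either. CHO-free mice are named here TS31, TS32, TS34, TS35 and TS36, and Control mice TS26, TS27, TS28, TS29 and TS30. The mice on the 3-day protein-free diet (n = 5) and the 3-day fat-free diet (n = 4), normalized together with these arrays, were used for comparison. SE and adjusted p-values of genes come from a fit of 27 arrays. It also held mice on 30% dietary restriction for 14 days (n = 5) and chow-fed controls (n = 3). The paper describes that restriction as a cohort with a control group of its own.

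Metabolism of protein, and of its sulfur amino acids in particular, produces acid. The kidney disposes of that acid by taking up glutamine in the proximal tubule, splitting off its nitrogen as ammonium and excreting it, while the intercalated cells of the collecting duct secrete protons. The proximal tubule also makes glucose and reabsorbs phosphate, citrate, amino acids and bicarbonate. Genes of these functions are described first, followed by those of amino acid, glucose and lipid metabolism, detoxification, the clock and protein synthesis.

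All values are signals on the log2 scale, as obtained by the authors with RMA, so that a difference of 1 is a doubling of the signal. The median signal of the 27 arrays normalized together lay between 3.62 and 3.76, and a probe set below that level is close to the background of the array. Levels of different genes are not compared, since each probe set has its own brightness. The kidney label was borne out by high signals of segment markers. Umod, the marker of the thick ascending limb, had a mean of 12.85 on the CHO-free diet and 12.90 on the Control diet. For Slc12a3 of the distal convoluted tubule the means were 11.09 and 10.76, and for Aqp2 of the collecting duct 8.48 and 7.97. In whole kidney, fewer cells of a type and less RNA per cell cannot be told apart.

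Control transcripts that report on RNA quality differed between the groups for Gapdh and beta-actin. Gapdh is covered by control probe sets at its 3' and its 5' end, and their difference grows when RNA is broken or incompletely copied. This 3' minus 5' difference was 1.63 in TS31, 0.98 in TS32, 2.45 in TS34, 2.45 in TS35 and 1.72 in TS36. In the Control mice it was 0.95 in TS26, 0.96 in TS27, 0.65 in TS28, 0.86 in TS29 and 0.70 in TS30. Every CHO-free array thus lay above every Control array, although TS32 did so narrowly. The means were 1.85 ± 0.62 (SD, n = 5) and 0.82 ± 0.14 (SD, n = 5), which differ by 1.03 (2-sided exact permutation test, p = 0.00794, the smallest p that 5 against 5 arrays allow; adjusted p = 0.0159 over 4 control transcripts). The control probe sets of beta-actin gave the same picture, with a difference of 1.27 (exact permutation test, p = 0.00794), whereas those of the transferrin receptor differed by only 0.18 (exact permutation test, p = 0.238). Those of pyruvate carboxylase differed by 0.53 (exact permutation test, p = 0.0635). The medians of the other diets, 1.41 for the protein-free arrays (range 0.74 to 2.19) and 1.20 for the fat-free arrays (0.89 to 1.78), lay between those of the Control (0.86) and the CHO-free arrays (1.72). The results below are therefore given also from a fit with this difference as a covariate. As the covariate and the diet move together in these 10 arrays, that fit has less power, with a median SE of 0.13 in place of 0.11.

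**Figure D1:**
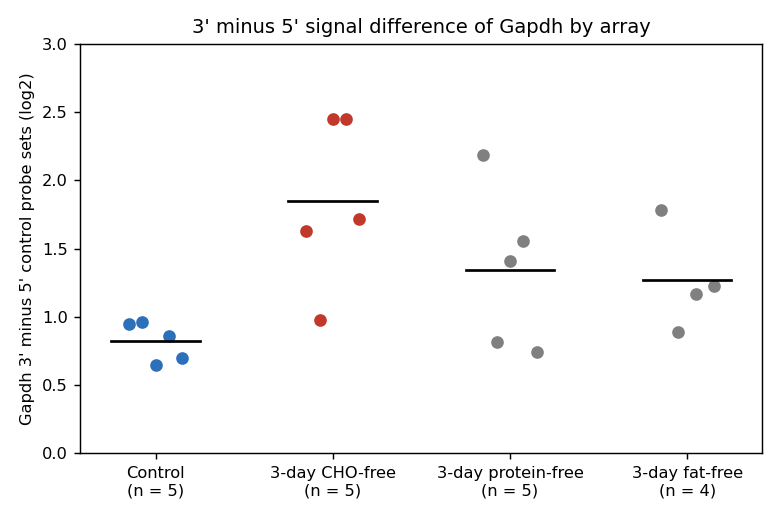
Signal of the Gapdh control probe sets at the 3' end less that at the 5' end (y axis, log2) for each array of 4 diets (x axis). Points are arrays and lines are group means. The 5 CHO-free arrays lie between 0.98 and 2.45, all above the 5 Control arrays, which lie between 0.65 and 0.96.

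Probe sets were called differentially expressed (DEPS) where limma's false discovery rate, adjusted over all probe sets, stayed below 5% and the groups differed 1.5-fold or more. With the CHO-free diet 1627 of 45141 probe sets were DEPS, which is 3.60%. Of these 611 (1.35% of all) were higher and 1016 (2.25%) were lower than with the Control diet. They covered 1091 named genes, 328 of them with a higher and 766 with a lower probe set. The median difference over all probe sets was 0.03. When each array's median was subtracted first, the split moved to 467 higher and 1263 lower of 1730 DEPS, that is from 37.6% to 27% higher. Among the higher DEPS 376 had all CHO-free arrays above every Control array, and among the lower ones 467 had all below. Over all probe sets these shares were 3.02% and 2.37%.

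With the Gapdh covariate 402 DEPS were found, 220 higher (0.487%) and 182 lower (0.403%), or 0.891% of all probe sets. At the level of genes, each by its brightest probe set, 1.39% were called, 0.743% higher and 0.649% lower. The 402 included 167 of the 611 higher and 153 of the 1016 lower ones. The median difference of the higher DEPS moved from 0.71 to 0.54 with the covariate, and that of the lower DEPS from -0.77 to -0.36, so the lower calls shrank more. Without TS34 and TS35, the arrays with the highest Gapdh difference, 565 DEPS remained, 301 higher and 264 lower, of which 496 were among the 1627. TS32, the CHO-free array with a Gapdh difference close to the Control arrays, lay above every Control array for 447 of the 611 higher DEPS (73.2%, against 18.6% of all probe sets). It lay below every Control array for 509 of the 1016 lower DEPS (50.1%, against 14.3% of all probe sets). TS32 took part in making these calls, so its shares are a description.

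Slc38a3, which encodes the glutamine transporter SNAT3 of the proximal tubule, had the largest increase of all genes whose arrays did not overlap. Its signal was 10.44 in TS31, 9.44 in TS32, 10.11 in TS34, 10.02 in TS35 and 10.19 in TS36, against 6.52 in TS26, 6.08 in TS27, 5.94 in TS28, 5.72 in TS29 and 5.49 in TS30. The lowest CHO-free array thus exceeded the highest Control array by far more than the range within either group. The difference of 4.09 ± 0.22 (SE) corresponds to 17.0-fold (adjusted p = 4.44e-12), and it was 3.73 ± 0.25 (adjusted p = 1.12e-09) with the Gapdh covariate. A second probe set of the gene was higher by 0.54, which is below the fold change required.

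Glud1, the mitochondrial glutamate dehydrogenase that releases ammonium from glutamate, was high in all mice and rose further. It measured 12.44, 12.47, 12.19, 12.59 and 12.69 in the CHO-free mice, in the order TS31, TS32, TS34, TS35 and TS36. All Control mice lay within 11 to 11.09, so the groups were far apart. The difference was 1.43 ± 0.09 (2.7-fold, adjusted p = 1.17e-10), the same to within 0.01 with the covariate (1.44), and the second Glud1 probe set rose by 1.16 (adjusted p = 2.53e-07). Fam25c, which encodes a small protein, had the second largest increase. Its signal was 9.41, 8.93, 9.38, 9.46 and 9.60 in the CHO-free mice and ranged from 6.39 to 6.75 in the Control mice, a difference of 2.79 ± 0.17 (6.9-fold, adjusted p = 2.37e-11; 2.66 with the covariate). On GRCm38.p6 the Fam25c gene (chr14:34351882-34358339) begins 6848 bases past the end of Glud1 (chr14:34310727-34345033), with only the transcribed pseudogene Gm3219 listed between them by RefSeq. Fam25c was looked at beside Glud1 after its value was seen.

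Of the 12 measured genes of glutamine uptake and ammonia production, 4 rose and none fell, against 4.11% of all genes called in either direction when each gene is represented by its brightest probe set (1.5% higher and 2.60% lower). The median difference of the list was 0.40, beside 0.02 over all genes. The counts of every list below are likewise to be read beside the 4.11% of all genes, or beside 1.39% with the covariate. Besides Slc38a3 and Glud1 the members that rose were the neutral amino acid transporter Slc1a5 (0.77, adjusted p = 0.00177) and the glutamine transporter Slc38a1 (0.62, adjusted p = 0.000561). With the Gapdh covariate 3 of the 4 were called, Slc1a5 being lost at 0.57. The ammonia channels of the collecting duct did not pass the test, with 0.48 for Rhcg (adjusted p = 0.0643) and 0.41 for Rhbg (adjusted p = 0.126). The only named probe set of Pck1, the enzyme of gluconeogenesis that disposes of the carbon of glutamine, had a signal of 2.96 and 2.74 in the groups, at background, so it does not inform on this gene.

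**Figure D2:**
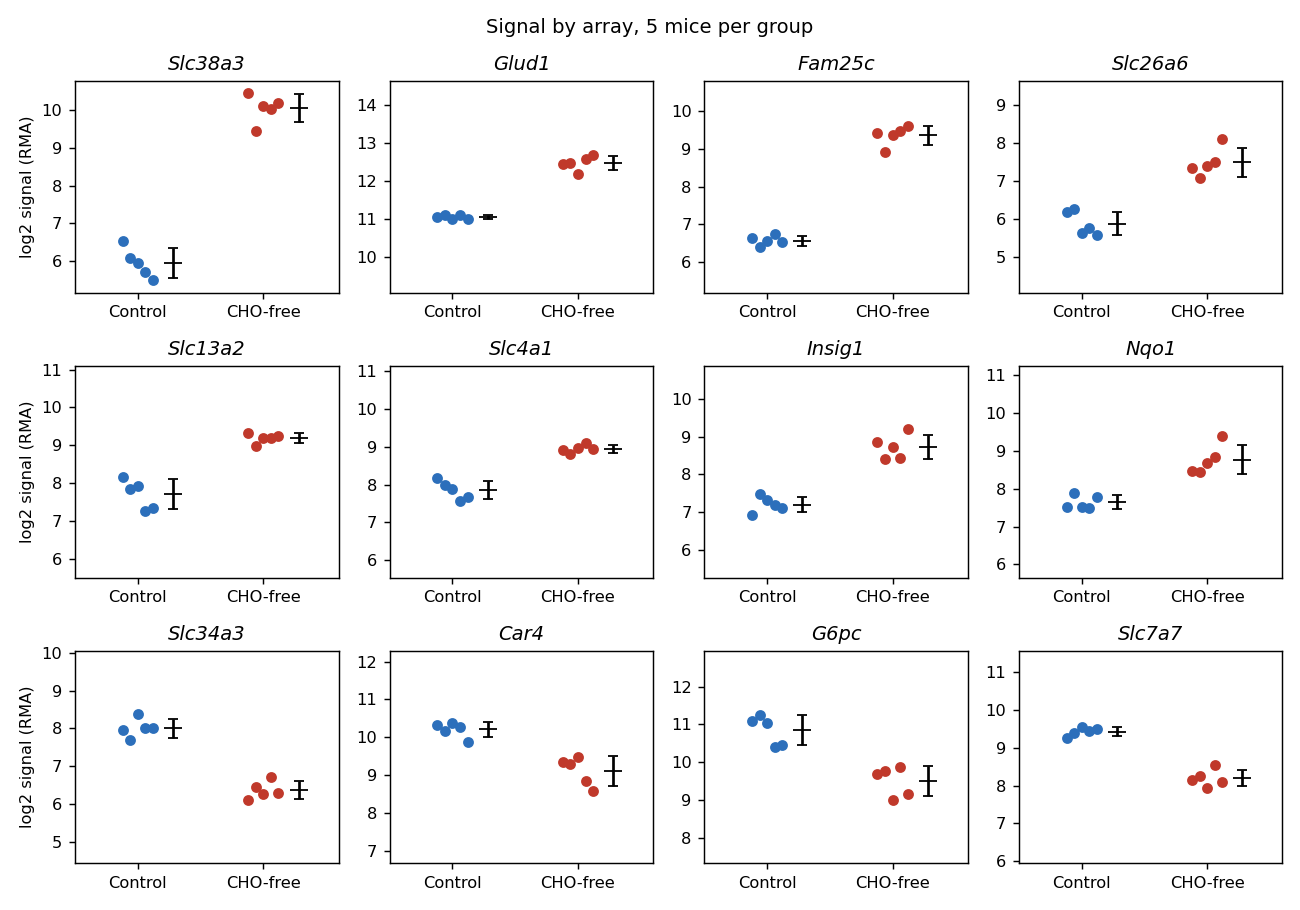
Signal by array (y axis, log2, each panel spanning the same number of log2 units) of 12 genes in the 5 Control and 5 CHO-free mice. Points are mice and bars are mean ± SD. In every panel the groups do not overlap, and Slc38a3 has the widest gap, with 5.95 ± 0.39 in Control and 10.04 ± 0.37 in CHO-free mice. The 15 most changed genes per direction were picked for not overlapping, so for those shown here this follows from the choice.

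Genes of acid-base transport that belong to the proximal tubule or to intercalated cells were called. Arrays of whole kidney do not locate a change in a cell type. Of 23 measured genes 4 rose and 1 fell, with the same counts under the Gapdh covariate, in which Car2 took the place of Aqp6. Slc26a6, an anion exchanger of the brush border that carries chloride, oxalate and bicarbonate, measured 7.35, 7.08, 7.40, 7.5 and 8.12 in the CHO-free mice and 6.17, 6.25, 5.62, 5.76 and 5.57 in the Control mice. It rose by 1.61 ± 0.17 (3.06-fold, adjusted p = 9.83e-07). Slc13a2, the sodium-coupled citrate transporter NaDC1 of the brush border, lay between 8.99 and 9.33 in the CHO-free mice and between 7.25 and 8.16 in the Control mice. Its rise of 1.48 ± 0.14 (2.8-fold, adjusted p = 2.53e-07) was 1.51 with the covariate.

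Slc4a1, the chloride-bicarbonate exchanger AE1 of acid-secreting intercalated cells and of red blood cells, was 8.91, 8.80, 8.97, 9.11 and 8.95 in the CHO-free mice. In the Control mice it was 8.17, 8.0, 7.89, 7.56 and 7.67, so the groups did not overlap. It rose by 1.09 ± 0.10 (2.13-fold, adjusted p = 7.87e-08), while the 2 measured red blood cell markers differed by -0.27 and -0.23. Aqp6, a channel of intercalated cell vesicles, rose by 0.93 (adjusted p = 0.00137), with TS36 at 8.82 and Control mouse TS26 at 8.83 touching, and it was not called with the covariate (0.76, adjusted p = 0.0862), whereas a dimmer Aqp6 probe set was called in both fits (0.77 and 0.83). Other genes of the same cells did not pass the test, namely the proton pump subunits Atp6v1b1 (-0.09) and Atp6v0a4 (0.06), the transcription factor Foxi1 (0.14) and the exchanger Slc26a4 of base-secreting cells (-0.17). The mean signal of 6 intercalated cell markers, Slc4a1 and Aqp6 included, was 8.41 to 8.64 in CHO-free and 7.87 to 8.51 in Control mice, and the ranges overlap.

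Car4, the membrane-bound carbonic anhydrase of the brush border, was the acid-base gene that fell. Its brightest probe set measured 9.35, 9.30, 9.48, 8.84 and 8.57 in the CHO-free mice and 10.33, 10.17, 10.38, 10.28 and 9.87 in the Control mice. The fall was -1.10 ± 0.15 (adjusted p = 5.07e-05), and the second probe set fell by -1.53. With the covariate the values were -0.94 and -0.99 and both stayed called. Cytosolic Car2 (0.44, adjusted p = 0.00166) and the basolateral bicarbonate cotransporter Slc4a4 (0.46, adjusted p = 0.0132) passed the false discovery rate but not the fold change, and 1 other of the 4 probe sets of Slc4a4 was called at 0.67.

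Phosphate transporters moved in opposite directions. Slc34a3, the sodium-phosphate cotransporter NaPi-IIc of the brush border, measured 6.11, 6.44, 6.27, 6.72 and 6.30 in the CHO-free mice and 7.95, 7.68, 8.37, 8.01 and 8.0 in the Control mice. It fell by -1.63 ± 0.18 (3.1-fold, adjusted p = 1.91e-06; -1.58 with the covariate). Slc20a1, the more widely expressed phosphate transporter PiT-1, rose from a range of 7.86 to 8.33 to a range of 8.73 to 9.13, that is by 0.83 ± 0.13 (adjusted p = 0.000175). Its relative Slc20a2 did not pass the test (0.22). Of the 23 measured genes of phosphate, vitamin D and calcium handling 1 rose and 3 fell, and 1 and 2 were called with the covariate. The other members that fell were Slc8a1, the sodium-calcium exchanger of the distal tubule (-1.05, adjusted p = 0.000152), and Cldn16, a tight junction protein of the thick ascending limb (-0.62, adjusted p = 0.0079), the latter not with the covariate (-0.20). Klotho (Kl), the co-receptor of the phosphate hormone FGF23, had -0.45 (adjusted p = 0.00259), short of the fold change. Cyp24a1, which inactivates vitamin D, varied widely among CHO-free mice, with 5.73, 6.73, 5.64, 8.52 and 8.24, against 7.49 to 8.88 in Control mice. Its difference of -1.34 ± 0.44 just missed the threshold (adjusted p = 0.0507). Vdr (0.02) and S100g (0.00), a calcium-binding protein under vitamin D control, had differences close to 0.

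**Figure D3:**
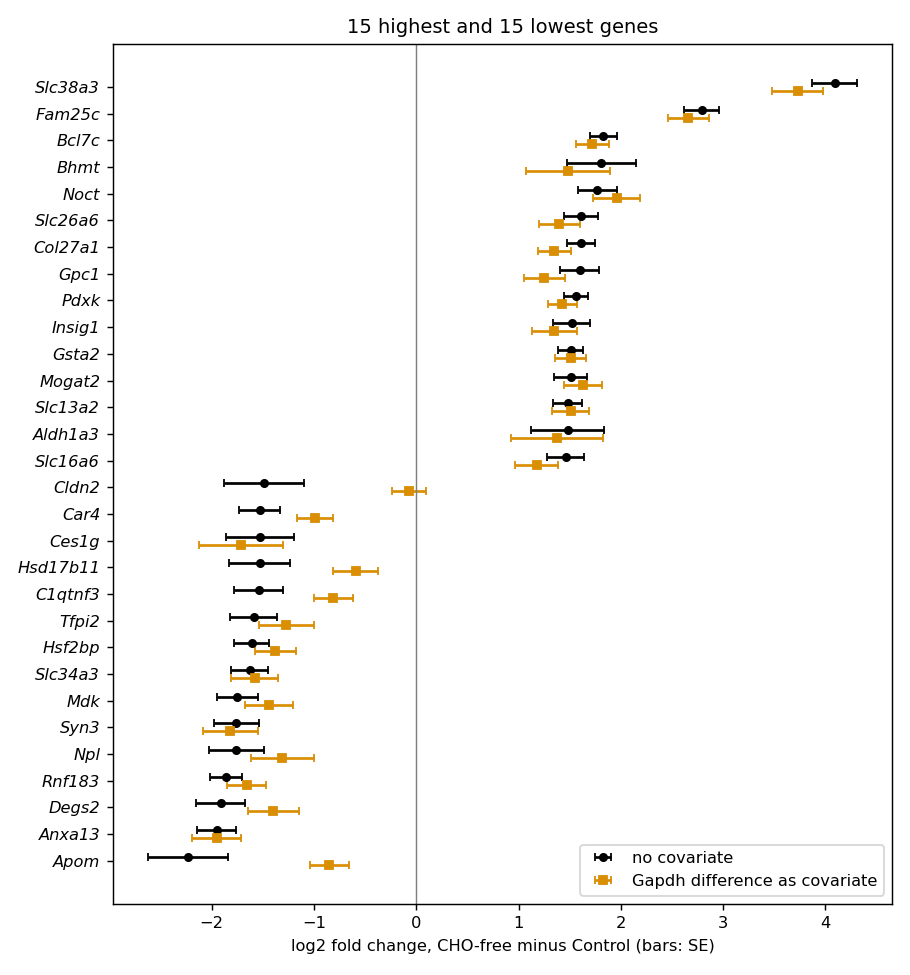
Differences between CHO-free and Control mice (x axis, log2; bars are SE) for the 15 genes that rose most and the 15 that fell most among those whose arrays did not overlap. Circles are from the fit without and squares from the fit with the Gapdh difference as a covariate; 13 of 15 genes in each direction stay called with the covariate, and Cldn2 moves from -1.49 to -0.07.

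Single enzymes of amino acid metabolism were called in several lists. In the methionine and choline list 2 of 19 genes rose and none fell, and 17 of the 19 differences were above 0, with a median of 0.26 (0.29 with the covariate). The mean signal of this list was 8.92 to 9.14 in the CHO-free and 8.60 to 8.82 in the Control mice, without overlap. Mean signals of lists are not adjusted for the Gapdh difference, which separated the same groups without overlap. Bhmt, which remethylates homocysteine with betaine, was 6.76, 6.31, 7.45, 6.33 and 8.19 in the CHO-free mice and 4.86 to 5.55 in the Control mice, a rise of 1.81 ± 0.34 (adjusted p = 0.00121) that lost its call with the covariate (1.48 ± 0.41, adjusted p = 0.0785). Sardh, which oxidises sarcosine to glycine further along this route, rose by 0.74 (adjusted p = 0.00475). Cbs (0.11), Cth (0.03) and Cdo1 (0.40), which carry the sulfur of methionine to cysteine and its oxidation, did not pass the test. With the covariate Cdo1 (0.68) and the sulfite oxidase Suox (0.67) were called in place of Bhmt and Sardh. Of 13 genes of serine, glycine and threonine 2 rose and 1 fell. Gldc, the decarboxylase of the glycine cleavage system that frees ammonium, was 9.11, 8.92, 8.65, 8.79 and 8.95 in CHO-free mice and 7.80 to 8.0 in Control mice. It rose by 1.01 ± 0.15 (adjusted p = 0.000103) and by 1.21 with the covariate. Shmt1 rose by 0.60 and Psph, the last step of serine synthesis, fell by -0.64, and neither was called with the covariate (0.55 and -0.40).

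Pdxk, the kinase that makes the active form of vitamin B6 used by transaminases and by Gldc, rose in all 3 of its probe sets. The called probe set with the lowest p lay between 6.31 and 6.92 in the CHO-free and between 4.81 and 5.42 in the Control mice, a rise of 1.56 ± 0.12 (2.95-fold, adjusted p = 4.05e-09; 1.43 with the covariate). In the arginine and urea list 2 of 16 genes rose and 1 fell. Arg2, the mitochondrial arginase, rose by 0.81 (adjusted p = 0.0266) and Ass1, which makes argininosuccinate, fell by -0.75 (adjusted p = 0.000523). Cps1 was called at 1.36 (adjusted p = 0.0368), but its signal was 3.84, 3.90, 4.79, 2.94 and 6.69 in the CHO-free mice and 2.74 to 3.49 in the Control mice, so that the value rests largely on TS36 and on a Control level at background. With the covariate Arg2 (1.22) was the only called gene of this list, and Ass1 was lost (-0.53, adjusted p = 0.0737). Among the genes of aromatic amino acid, lysine and histidine catabolism, Hpd of tyrosine breakdown (0.81) and Kynu of tryptophan breakdown (0.75) rose and Aadat (-0.65) fell, of 15 measured. With the covariate 1 gene of this list was called higher and Aadat (-0.63) lower. None of 18 genes of branched-chain amino acid catabolism was called, and their median was -0.02.

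Among 34 transporters of amino acids and peptides 3 rose and 2 fell, and 2 and 1 were called with the covariate. Slc7a7, the basolateral exchanger y+LAT1 for cationic amino acids, was 8.15, 8.26, 7.95, 8.55 and 8.10 in the CHO-free mice and 9.26 to 9.56 in the Control mice. It fell by -1.23 ± 0.19 (adjusted p = 0.000175; -0.92 with the covariate). Slc7a13 of the proximal tubule fell by -0.68, and besides Slc38a3 and Slc38a1 the proline transporter Slc6a20a rose by 0.64. The main neutral amino acid transporter of the brush border, Slc6a19, had -0.41 (adjusted p = 0.15) and the peptide transporter Slc15a2 -0.18. Of 9 brush border peptidases only Dpep1 was called, at -0.65. In the ATF4 response to missing amino acids 1 of 24 genes rose, Nupr1 (0.86, adjusted p = 0.025), which was not called with the covariate. This share of 4.17% is near the 4.11% of all genes. Asns (0.46), Trib3 (0.26), Chac1 (-0.03) and Atf4 (0.16) of this response did not pass the test.

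A gene of the last step of glucose production fell, and the rest of the pathway was largely below the threshold. G6pc, the glucose-6-phosphatase that releases free glucose, was 9.70, 9.78, 9.01, 9.86 and 9.17 in the CHO-free mice and 11.09, 11.26, 11.05, 10.40 and 10.46 in the Control mice. It fell by -1.35 ± 0.20 (2.54-fold, adjusted p = 9.13e-05; -1.16 with the covariate). Fbp2 fell by -0.91 (adjusted p = 0.016), while the renal isoform Fbp1 (-0.22), Pcx (0.17) and the transporter Slc37a4 (0.00) did not pass the test. These were the only 2 called of 14 genes of gluconeogenesis and glucose transport, and with the covariate 1 gene of the list was called, as lower. The glucose transporters Slc2a2 (-0.50, adjusted p = 0.0039) and Slc5a2 (-0.51, adjusted p = 0.0141) passed the false discovery rate without the fold change. Of 24 genes of glycolysis and pyruvate oxidation 4 rose, namely Aldoc (1.05), Pfkfb4 (0.91), Pkm (0.70) and Pklr (0.64), and with the covariate Aldoc and the phosphofructokinase Pfkp (0.61) were called. Pdk4, which blocks pyruvate oxidation when carbohydrate is scarce, differed by -0.09 (adjusted p = 0.9). Ketohexokinase (Khk, -0.28), the fructose transporter Slc2a5 (-0.34) and Mlxipl, the carbohydrate-responsive factor ChREBP (-0.26), were not called either, and Pklr was the only called gene of the 10 in that list.

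Several single genes of lipid metabolism were called. Insig1, the brake on sterol synthesis in the endoplasmic reticulum, was 8.86, 8.40, 8.73, 8.44 and 9.20 in the CHO-free mice and 6.93 to 7.48 in the Control mice. It rose by 1.52 ± 0.18 (2.87-fold, adjusted p = 3.88e-06; 1.35 with the covariate). Ebp, an isomerase of cholesterol synthesis, rose by 0.78 ± 0.10 (adjusted p = 1.4e-05), and these were the called members of 18. Hmgcs1 (0.35) and Srebf2 (0.19) did not pass the test and Idi1 had -0.53 (adjusted p = 0.0189). Mogat2, which joins a fatty acid to monoacylglycerol, rose by 1.51 ± 0.16 (adjusted p = 6.26e-07), from 6.05 to 7.11 in the Control mice to 7.66 to 8.44 in the CHO-free mice.

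Apom, the apolipoprotein that carries sphingosine-1-phosphate and is made in the proximal tubule, fell most of the genes whose arrays did not overlap. Its called probe set with the lowest p was 6.72, 7.86, 6.09, 5.93 and 7.10 in the CHO-free mice and 8.48, 9.28, 9.08, 8.88 and 9.13 in the Control mice. The fall of -2.23 ± 0.39 (4.69-fold, adjusted p = 0.000596) shrank to -0.85 ± 0.19 (adjusted p = 0.0183) with the covariate, and the brighter probe set went from -1.83 to -0.76 and lost its call. TS34 and TS35, the arrays with the highest Gapdh difference, had the lowest Apom signals, and the part of RNA quality in this was not tested. Degs2, which makes phytoceramide, fell by -1.91 ± 0.24 (adjusted p = 1.31e-05; -1.40 with the covariate) and the carboxylesterase Ces1g by -1.53 (adjusted p = 0.00367; -1.71), to a CHO-free mean of 3.52 at background, so that the fall may be understated. Hsd17b11, a dehydrogenase of lipid droplets, fell by -1.53 and lost its call with the covariate (-0.59).

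In the list of fatty acid oxidation and PPARA targets 3 of 27 genes rose and none fell, and 2 were called higher with the covariate. Acot3, a peroxisomal thioesterase, was 8.23, 7.96, 7.44, 7.08 and 7.61 in the CHO-free mice and 6.38 to 6.43 in the Control mice, a rise of 1.25 ± 0.17 (adjusted p = 3.12e-05) that was 1.53 with the covariate. Cyp4a10 rose by 0.83 and Cpt1b by 0.73, whereas Cpt1a differed by 0.03. The brightest probe set of Ppara itself had 0.53 and 2 other probe sets were called at 0.83 and 0.86. None of 5 ketone body genes was called, with Oxct1 at -0.01. Of 15 genes of fatty acid synthesis 3 rose, namely Dgat2 (0.69), Acacb (0.67) and Fads1 (0.60), and none was called with the covariate. Fasn (0.19) and Scd1 (-0.01) did not pass the test.

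Targets of NRF2, the transcription factor of the antioxidant response, rose without a change of the factor itself passing the test (Nfe2l2, -0.19). Of 22 measured genes 6 rose and none fell, and 5 rose with the Gapdh covariate. The median was 0.30. Nqo1, a quinone reductase, was 8.48, 8.44, 8.68, 8.84 and 9.39 in the CHO-free mice and 7.53, 7.89, 7.51, 7.5 and 7.79 in the Control mice, a rise of 1.12 ± 0.15 (2.18-fold, adjusted p = 1.75e-05). The others were the pentose phosphate enzymes Tkt (0.95) and Pgd (0.77), the glutathione transferase Gstm1 (0.86, called in all 4 of its probe sets), Ephx1 (0.67) and Ugdh (0.65), of which Pgd was lost with the covariate. The stress-inducible Hmox1 (-0.15) and Gclc (0.28) did not pass the test, nor did Cat (0.33), Sod1 (-0.02), Gpx1 (-0.14) or Gpx3 (0.08). Gsta2, another glutathione transferase, rose from 10.07 to 10.72 in the Control mice to 11.75 to 12.30 in the CHO-free mice, by 1.51 ± 0.12 (2.86-fold, adjusted p = 8.91e-09).

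Among 23 other drug-metabolising enzymes 2 rose and 3 fell, while 3 were called higher and 1 lower with the covariate. The retinaldehyde dehydrogenase Aldh1a1 rose by 0.80 and Ugt2b37 by 0.82, and Cyp2d26 (-0.95), Fmo5 (-0.83) and Sult1c2 (-0.67) fell. Aldh1a3 rose by 1.48 ± 0.36 (adjusted p = 0.00952) in 1 of its 3 probe sets, with a wide range of 4.41 to 6.59 among CHO-free mice, and lost its call with the covariate. Of 25 organic ion and drug transporters 3 rose, all of them ATP-driven exporters of organic anions or drugs, namely Abcc4 (0.99), Abcc2 (0.86) and Abcb1b (0.69). Slco1a6 fell by -0.64. Only Abcc4 and Slco1a6 of these 4 were called with the covariate. The uptake transporters Slc22a6 (0.24), Slc22a8 (0.54) and Slc22a7 (-0.53) did not pass the test, though a second probe set of each of the first 2 was called at 0.62 and 0.98.

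**Figure D4:**
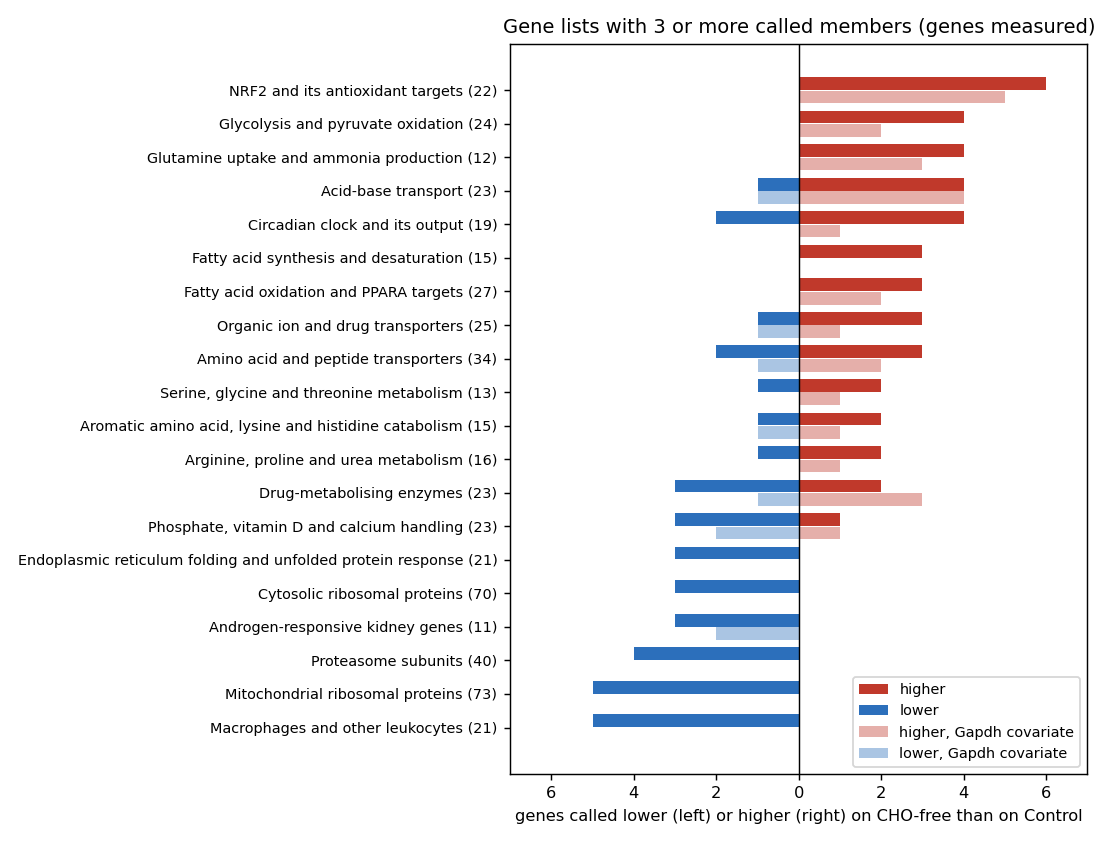
Number of genes called lower (bars to the left) or higher (bars to the right) on the CHO-free diet than on the Control diet, for each gene list with at least 3 called genes; the number measured is in brackets. Full bars are from the fit without and pale bars from the fit with the Gapdh covariate. NRF2 targets keep 5 of 6 higher genes, and ribosomal, proteasome and leukocyte genes keep none.

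Clock genes differed as well. The clock runs on the activators Arntl (BMAL1) and Npas2 or Clock, which bind E-boxes in the promoters of the Per genes and of output genes such as Dbp and Ciart, whose products repress or relay the rhythm. Of 19 measured genes 4 rose, Dbp (1.03), Ciart (1.01), Per1 (0.81) and Hlf (0.68), and 2 fell, Npas2 (-0.81) and Arntl (-0.69). Ciart, a repressor of the activators, was 4.40, 3.95, 4.38, 4.53 and 4.51 in the CHO-free mice and 3.45, 2.86, 3.79, 3.18 and 3.42 in the Control mice. It was the only one called with the covariate (1.06, adjusted p = 0.0383). As its Control mean of 3.34 lies at background, its difference may understate the change. Dbp overlapped between the groups, with 6.49 in TS32 and 6.91 in Control mouse TS26. Per2 (0.18) and Per3 (0.33) did not pass the test in their brightest probe sets, although 2 dimmer probe sets of Per3 were called (0.62 and 0.63, neither with the covariate). The clock time of killing is not given in the labels, so a shift in the hour of sampling cannot be told apart from the diet. Noct, a clock-linked phosphatase of nicotinamide cofactors, differed more between the groups. It was 8.80, 8.98, 8.60, 8.98 and 9.24 in the CHO-free mice and 6.84, 6.64, 7.83, 7.24 and 7.18 in the Control mice, a rise of 1.77 ± 0.19 (3.42-fold, adjusted p = 9.83e-07; 1.96 with the covariate).

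The promoters of Ciart and Per1 are shown because these clock genes rose and hold the letters that the activators bind. They are the 250 bases upstream of a gene start, 5′ to 3′, from the RefSeq table of GRCm38.p6, with each E-box, CACGTG, which reads the same on both strands, in capitals. Ciart lies on the minus strand (chr3:95882229-95882478) and Per1, at the first of its 2 listed starts, on the plus strand (chr11:69098699-69098948).
Ciart: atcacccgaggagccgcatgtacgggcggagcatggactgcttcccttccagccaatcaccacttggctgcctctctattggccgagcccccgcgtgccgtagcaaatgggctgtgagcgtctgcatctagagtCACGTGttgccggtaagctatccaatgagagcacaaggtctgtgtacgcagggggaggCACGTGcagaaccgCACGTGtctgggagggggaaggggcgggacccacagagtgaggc
Per1: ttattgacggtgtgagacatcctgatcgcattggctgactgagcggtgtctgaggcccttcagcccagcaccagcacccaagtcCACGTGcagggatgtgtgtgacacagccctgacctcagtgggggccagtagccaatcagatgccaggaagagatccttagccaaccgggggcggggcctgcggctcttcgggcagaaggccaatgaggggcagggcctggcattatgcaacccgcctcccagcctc
The E-boxes begin 116, 58 and 44 bases before the Ciart start and 166 bases before the Per1 start. Such a window holds at least 1 E-box in 6.02% of 32851 promoters and 3 or more in 0.0609%. Of the 16 clock genes with a promoter in the table, 2 of the 6 called and 3 of the 10 others hold one, so the letters did not go with being called, and Dbp and Hlf hold none in this window. A match is a description and does not show binding.

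Other genes with large changes belong to no common list. Bcl7c, a subunit of a chromatin remodelling complex, rose by 1.83 ± 0.13 (3.55-fold, adjusted p = 1.25e-09) in 1 probe set, while its second probe set differed by -0.12. Col27a1, a fibrillar collagen, rose by 1.61 ± 0.14 in 1 probe set and by 1.5 in the other, although none of the 24 collagens and matrix genes of the list was called. The heparan sulfate proteoglycan Gpc1 rose by 1.6, the monocarboxylate carrier family member Slc16a6 by 1.46 and Cdkn1a, the cell cycle inhibitor p21, by 1.05, and all 3 were called with the covariate. The genes that fell most included Anxa13 (-1.95, -1.95 with the covariate), a membrane-binding annexin, the ubiquitin ligase Rnf183 (-1.86, -1.66), the growth factor Mdk (-1.75, -1.44) and Npl (-1.76, -1.31), which splits sialic acid. Anxa13 went from 5.33 to 5.78 in the Control mice to 3.28 to 4.12 in the CHO-free mice (mean 3.7, at background) and Rnf183 from 6.48 to 6.84 to 4.41 to 5.22. Hsf2bp (-1.61), Tfpi2 (-1.59) and C1qtnf3 (-1.54) fell as well and were called with the covariate.

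Syn3 fell by -1.76 ± 0.22 (adjusted p = 9.34e-06). The Syn3 gene (chr10:86048746-86498926, GRCm38.p6) encloses Timp3, an inhibitor of matrix proteases (chr10:86300412-86349505), and 1 of the 4 probe sets of Timp3 fell by -1.30 (adjusted p = 0.000241). Whether the overlapping genes share signal on the array was not tested. For Hnf4a, a master regulator of the proximal tubule, the 4 probe sets disagreed. The brightest differed by 0.08, and 1 fell by -1.38 (adjusted p = 0.00124; adjusted p = 0.0594 with the covariate). Cldn2, the paracellular channel of the proximal tubule, was 4.66, 5.81, 4.22, 4.31 and 5.03 in the CHO-free mice and 5.94 to 6.68 in the Control mice. It fell by -1.49 (adjusted p = 0.0155), but its difference with the covariate was -0.07 ± 0.17, and the lowest signals were again those of TS34 and TS35. The part of RNA quality in this fall was not tested either.

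Genes of protein synthesis, degradation and folding are given beside the 2.60% of all genes that were called lower. Of 70 cytosolic ribosomal proteins 3 fell (Rps9, -0.78; Rpl9, -0.74; Rps13, -0.61), of 73 mitochondrial ribosomal proteins 5 fell, among them Mrps12 (-1.02) and Mrps18a (-0.91), and of 40 proteasome subunits 4 fell, among them Psmd7 (-0.86). For the cytosolic ribosomal proteins the share called, 4.29%, is near the 4.11% of all genes. No gene of these 3 lists rose, and none was called with the covariate, where the medians were -0.01, 0.03 and -0.03. The mean signal of the mitochondrial ribosomal list was 8.70 in TS31, 8.75 in TS32, 8.44 in TS34, 8.43 in TS35 and 8.58 in TS36 and lay between 8.69 and 8.82 in the Control mice. It fell within the Control range in TS31 and TS32, whose Gapdh differences were 1.63 and 0.98. The part of RNA quality in this was not tested. Of 21 genes of folding in the endoplasmic reticulum 3 fell, Manf (-1.10), Creld2 (-0.72) and the chaperone Hspa5 (-0.71), and of 17 cytosolic chaperones 2 fell, Hsp90aa1 (-1.12) and Chordc1 (-0.60). None of these 5 was called with the covariate, with Creld2 at -0.72 and Hspa5 at -0.61. The median of the endoplasmic reticulum list was -0.36, and -0.22 with the covariate. Its mean signal was 8.56 to 8.70 in the CHO-free and 8.77 to 9.22 in the Control mice, and TS32, at 8.70, lay below every Control mouse here. None of 69 subunits of oxidative phosphorylation, 19 genes of the TCA cycle or 18 genes around mTOR was called.

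Markers of other cells were measured beside these genes. Of 21 macrophage and other leukocyte markers 5 fell (23.8%, against 2.60% of all genes called lower), C1qb (-1.06), Aif1 (-0.75), C1qa (-0.74), Tyrobp (-0.68) and H2-Ab1 (-0.67). Their summed level, taken as the mean signal of the list, was 6.01 to 6.23 in the CHO-free and 6.31 to 6.96 in the Control mice without overlap, and 20 of the 21 differences were below 0. No member was called with the covariate, where the median was -0.28. Of the members that were not called, Ptprc (CD45) differed by -0.27 and Lyz2 by -0.16. Whether fewer leukocytes take part in the lower signals of other genes was not tested. No podocyte, endothelial, smooth muscle, adipocyte, adrenal or principal cell marker was called, with Adipoq, the adiponectin of fat cells, at 1.38. Nephron markers were called in both directions. Slc13a3 of the proximal tubule (0.64) and, as above, Slc4a1 and Aqp6 of intercalated cells rose, while Slc7a13 of the proximal tubule, Cldn10 and Cldn16 of the thick ascending limb and Pvalb of the distal convoluted tubule fell. Slc4a1 was the only one of these called with the covariate in its brightest probe set. Of 31 cell cycle genes Mcm6 (-0.72) and Nusap1 (-0.59) fell, and Mki67 had -0.33. With the covariate 1 gene of the cell cycle list was called higher and 1 lower. The shares called were 6.45% in the cell cycle list and 6.25% in the injury list, beside 4.11% of all genes. Of the injury genes 1 of 16 rose, which was Cdkn1a, and Havcr1 (KIM-1, -0.63) and Lcn2 (NGAL, -0.60) did not pass the test. No immediate early gene was called.

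Some hormone-responsive genes were called as well. Of 11 androgen-responsive kidney genes 3 fell, the steroid dehydrogenase Hsd3b2 (-1.34), Gusb (-0.90) and Acsm3 (-0.90), while the androgen-dependent Kap differed by -0.11. The median of this list was -0.47 (-0.43 with the covariate), and its mean signal was 9.88 to 10.38 in the CHO-free and 10.51 to 10.71 in the Control mice, without overlap. Among the 53 lists, mean signals also did not overlap for the methionine, leukocyte, endoplasmic reticulum folding, glutamine and NRF2 lists. None of these means is adjusted for the Gapdh difference. Hsd3b2 and Gusb were called with the covariate. The angiotensin receptor Agtr1a fell by -0.75 (adjusted p = 6.86e-06), the only call of 6 renin-angiotensin genes. Of the glucocorticoid-responsive genes Mt1 (0.95) and Per1 rose and Fkbp5 (0.06), Tsc22d3 (0.24) and Sgk1 (-0.03) did not pass the test. With the covariate 1 gene of that list was called, as higher. Of 21 genes of the insulin and FOXO axis only Cdkn1a was called. Foxo3 had 0.58 (adjusted p = 0.00113), just below the fold change required, and Igfbp1 had 0.47 (adjusted p = 0.544). Of 26 genes of sodium, potassium and water transport only Slc5a3, the osmotically regulated inositol transporter, was called (1.21, adjusted p = 0.000738; not with the covariate, 0.85), with a Control mean of 3.43 at background. The shares called in the insulin and FOXO list (4.76%) and in this transport list (3.85%) are near the 4.11% of all genes.

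Which of these differences separate the CHO-free diet from the other macronutrient-free diets was tested by direct contrasts. Differences of the diets from Control share the Control mice and are given side by side only. Against the protein-free diet 1101 probe sets (2.44%) were called, 495 higher (1.10%) and 606 lower (1.34%) on the CHO-free diet. Against the fat-free diet 564 (1.25%) were called, 283 higher (0.627%) and 281 lower (0.622%). Of the 15 genes that rose most over Control 14 were also higher than on the protein-free and 13 higher than on the fat-free diet. Of the 15 that fell most 13 were lower than on the protein-free and 11 lower than on the fat-free diet. The same 5 CHO-free arrays chose these genes and enter these contrasts, so the counts are a description and some overlap follows from the choice. Over all probe sets, 143 were higher and 164 lower than in all 3 other groups, and 87 and 82 of these were called with the Gapdh covariate against Control as well.

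Slc38a3 was higher than on the protein-free diet by 3.47 (adjusted p = 1.2e-10) and than on the fat-free diet by 3.46 (adjusted p = 1.06e-09), and Glud1 by 1.40 and 1.05. Fam25c was higher by 3.23 and 2.16, Slc26a6 by 1.81 and 1.43, Slc4a1 by 1.27 and 0.81 and Insig1 by 1.73 and 1.59, all of them called. Slc34a3 was lower by -1.31 and -1.14 and G6pc by -1.39 and -0.88, again called in both contrasts. Aldh1a3 was not called in either, with 0.77 (adjusted p = 0.225) and 0.47 (adjusted p = 0.6). Pdxk rose over Control by 0.92 also on the protein-free diet, and the CHO-free level was 0.64 above that. Anxa13 fell by -1.23 on the protein-free diet and the CHO-free level was -0.73 below that. Cyp24a1 went the other way on the protein-free diet, where it rose by 2.26 over Control (adjusted p = 0.00522), and the CHO-free level was lower than the protein-free one by -3.60 (adjusted p = 5.13e-06). Dbp was 1.03 above Control on the CHO-free and 1.44 above on the protein-free diet, which differ by -0.41 (adjusted p = 0.449), and Hpd 0.81 and 1.32, which differ by -0.51 (adjusted p = 0.156).

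**Figure D5:**
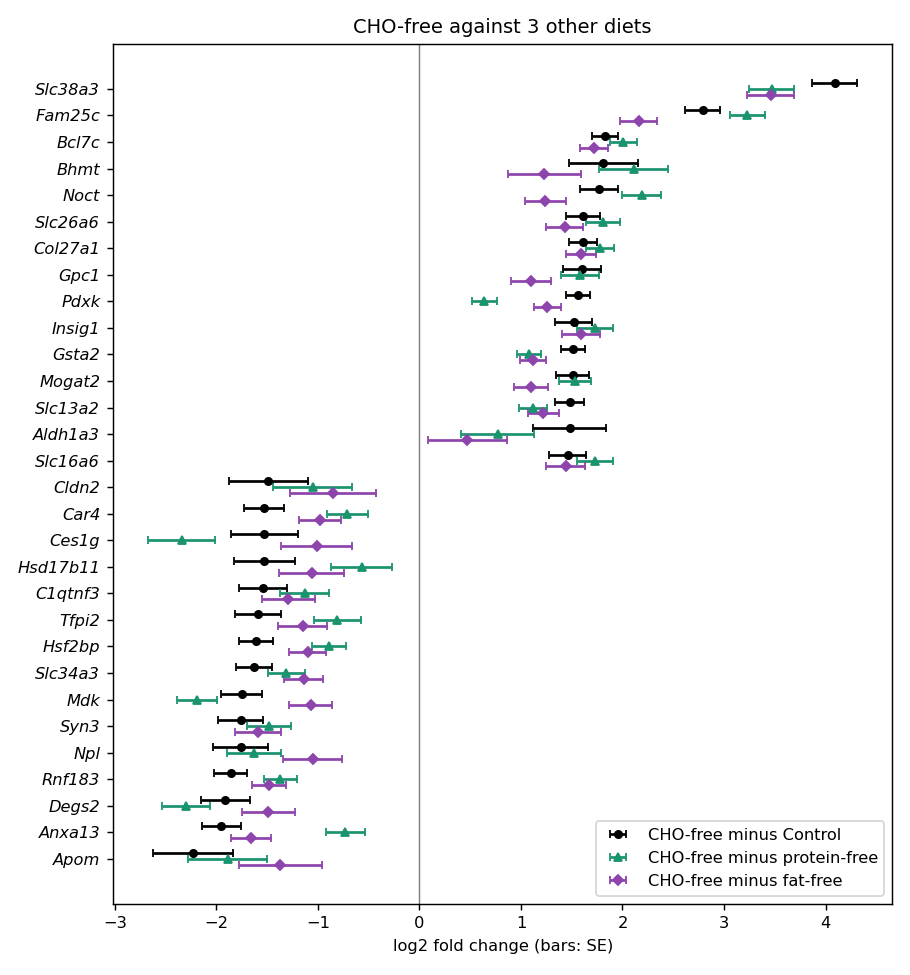
Differences of the CHO-free group from the Control, protein-free and fat-free groups (x axis, log2; bars are SE) for the 15 genes that rose most and the 15 that fell most over Control. Slc38a3 lies at 4.09, 3.47 and 3.46, and the smallest differences are those of Aldh1a3 from the fat-free group (0.47) and Hsd17b11 from the protein-free group (-0.57).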

How the data were processed

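Kidney RNA of single mice had been hybridized to Affymetrix HT MG-430 PM arrays. The authors normalized the scans with RMA through arrayanalysis.org and deposited log2 signals. The 27 arrays other than those of the fasted mice and their controls had been normalized together and were used here. They do not come from a single cohort, since the paper describes the dietary restriction among them as a cohort with its own control group. No RMA version is given in the sources used here. Outlier arrays of other groups had been removed by the authors. RMA on 3'-primed RNA can leave differences in RNA integrity or copying in the signals.

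All 27 arrays were fitted together in limma 3.58.1 (R 4.3.3), without and with the Gapdh 3' minus 5' difference as a covariate. The spread and the slope of the covariate were thus estimated from all of these diets, dietary restriction and chow included. P-values were adjusted over 45141 probe sets by Benjamini and Hochberg. Of these, 28898 had a single gene symbol (17097 genes), 551 had several and 15692 had none. Genes of a list were represented by their brightest probe set. Named were the 15 most changed genes per direction whose arrays did not overlap, up to 6 called members per list and core members of the lists, and a few others seen to matter. The comparison, its members and the 53 lists were chosen with earlier results of these data known.

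Tested on simulated data for CHO-free against Control, the fit called 38% of probe sets changed 1.5-fold upward, 94% and 96% of those changed 2-fold upward and downward, and 100% of those changed 4-fold. The simulation drew independent normal noise around the mean of each probe set and changed 200 probe sets. It held no difference in RNA quality between the groups, so its rates describe that setting only. Correlations between arrays were 0.9886 to 0.9953 within Control, 0.9836 to 0.9939 within CHO-free and 0.9742 to 0.994 between them. Each array is from its own mouse, and the number of arrays limits the precision. The mice were housed several to a cage. As the labels give no cage, the fits treat mice as independent and a cage effect could not be taken into account. Exact permutation tests used SciPy 1.17.1. Alternatives covered covariates, samples, scaling, filters and single arrays.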

Additional observations from a re-analysis of the deposited data

Results flagged for a closer look

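Among 246 groups of 5 arrays behind the named genes, 6 had 1 mouse far from the other 4, by Dixon's ratio against its 95% critical value of 0.71. Chance gives about 1 in 20 groups, and 6 of 246 is below that share. In the CHO-free group the mouse was TS32 in each case and its signal was the lowest. It had 8.34 for Hlf (others 8.83 to 8.96), 3.95 for Ciart (others 4.38 to 4.53) and 7.17 for Bcl7c (others 7.86 to 8.13). TS32 also had the lowest Gapdh 3' minus 5' difference of its group, 0.98, and the part of that in these values was not tested. In the Control group TS30 was lowest for the dicarboxylate transporter Slc13a3, at 9.05 (others 9.69 to 9.90), and highest for the mitochondrial ribosomal protein Mrps22, at 9.24 (others 8.58 to 8.74). TS28 was lowest for Anxa13, at 5.33 (others 5.66 to 5.78).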

How the results depend on the processing

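The 1627 DEPS against Control became 402 with the Gapdh and 314 with the beta-actin difference as a covariate, 37 with the Gapdh covariate in the arrays of the 2 groups alone (1240 without it), 4680 without a fold change minimum, 46 with limma treat at 1.5-fold, 717 with 1 probe set per gene, and 565 without TS34 and TS35. Leaving out 1 mouse gave 1029 (without TS34) to 2612 (without TS32). The 1101 DEPS against the protein-free diet became 3262 without a fold change minimum, 76 with treat and 647 with 1 probe set per gene, and 829 to 1745 (without TS32) with 1 mouse left out. The 564 against the fat-free diet became 288 with the Gapdh and 228 with the beta-actin covariate, 268 in the 2 groups alone, 99 there with the Gapdh covariate, 1269 without a fold change minimum, 8 with treat and 292 with 1 probe set per gene, and 338 (without TS34) to 1507 (without TS32) with 1 mouse left out. The Gapdh difference itself ranged from 0.87 to 1.24 with 1 mouse left out (exact permutation test, p = 0.0159, the smallest possible).

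Of 123 called named probe sets, 60 stayed called with the Gapdh and 45 with the beta-actin covariate, 16 in the 2 groups alone with the Gapdh covariate, 24 with treat and 77 without TS34 and TS35. Leaving out 1 mouse lost 1 to 23 of them. The sign turned for Mrpl53 with the Gapdh covariate (0.00089). It turned with the beta-actin covariate for Cldn2 (0.21), Psmd9 (0.08), Mrpl15 (0.045), Cldn10 (0.036) and Mrpl53 (0.14). In the 2 groups alone with the Gapdh covariate it turned for Psma1 (0.08), Rpl9 (0.0097), Mrps22 (0.0026), Psmd9 (0.045), Mrpl15 (0.023), Cldn10 (0.00055) and Mrpl53 (0.16). Beyond the covariates' own construction the cause was not tested. No paired analysis was possible because the labels identify each mouse by its own animal number (TS26 to TS36) and give no replicate number that the groups share.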
